A study of Mus musculus with 64 samples.

Results

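The 46 genes described here are the machinery of DNA replication and mitosis. They were taken by gene symbol from the 23338 genes of each count file, and all 46 were found. By role they comprise 9 genes of origin licensing and the replicative helicase, 4 of the sliding clamp and nucleotide supply, 6 G1 and S phase cyclins and E2F, 7 G2 and M phase cyclins and kinases, 4 of the spindle checkpoint, 6 of the centromere and kinetochore, 8 of the spindle and cytokinesis, and 2 of chromosome structure and proliferation.

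RNA-seq counts came from 64 libraries of mice labelled C57BL/6, which the methods give as C57BL/6 J. There were 12 single eight-cell embryos collected at 2.5 dpc after natural mating (6 male, 6 female), 4 ES cell lines (2 male, 2 female), 24 late gestation fetal livers (12 male, 12 female) and 24 livers of adults aged 15 to 20 weeks (12 male, 12 female). The ES lines were derived from eight-cell embryos and kept in 2i medium, which holds 2 kinase inhibitors beside LIF, so each is 1 cultured line and not an animal. The sex of the embryos was assigned in the study from transcripts of the sex chromosomes. The embryos of both sexes came from 4 litters, and since the labels do not tie embryos to litters, no litter term was fitted. Embryos were amplified with a protocol adapted from single-cell sequencing, while ES cells and livers went through a stranded total RNA kit, so where embryos are compared with ES cells the stage cannot be told apart from the protocol. Depth was 1567583 to 4757610 reads on genes in adult livers, 5145371 to 8499603 in fetal livers, 9857929 to 10386931 in ES lines and 4659656 to 7725432 in embryos. A count of 3 reads corresponds to at most 1.91 CPM (reads for each 1000000 reads on genes) in the shallowest adult liver and 0.644 in the shallowest embryo.

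A cell prepares to replicate by loading the MCM helicase onto origins in G1, with the help of Cdc6 and Cdt1, and geminin then blocks a repeat loading. Cyclin D and cyclin E with their kinases release E2F, which switches on genes for DNA synthesis. Genes for mitosis follow in G2, when cyclin B with Cdk1 drives entry, the checkpoint kinases watch kinetochore attachment, and Cdc20 turns on the ubiquitin ligase that ends metaphase. Cleavage stage embryos and ES cell lines are made of dividing cells. The fetal liver is the main site of blood formation before birth and is full of dividing erythroid precursors, while most adult hepatocytes rest outside the cycle.

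Promoters were compared first, because genes of replication and of mitosis are known to carry different regulatory letters near their starts. The CHR element is bound by the MuvB core complexes with B-Myb or Foxm1, the CCAAT box by NF-Y, and E2F sites by the E2F factors. A RefSeq promoter on GRCm38.p6, from 250 bases before to 50 bases after the start, was found for 37 members; Aurkb, Mcm4, Ccnd1, Ccnd2, Ccne2, Ccna2, Tpx2, Gmnn and Kif20a were not matched. Both strands were searched for CCAAT, for CHR as TTTGAA or TTCGAA, and for E2F as TTTGGCGC, TTTCGCGC, TTTCCCGC or TTTGCCGC. CCAAT was present in 26 of 37 members (70.3%), against 41.1% of the promoters of all 27025 symbols. CHR was present in 20 members (54.1%), against 21.7% of all, and an E2F octamer in 7 members (18.9%), against 2.61%. These are counts of letters, with no test, and a match is not a site shown to be bound.

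The motifs were spread unevenly over the roles. An E2F match was found in 6 of the 7 licensing and helicase promoters (Mcm3, Mcm5, Mcm6, Mcm7, Cdc6 and Cdt1), and the other match was in Cdk1. CHR was found in 2 of those 7 promoters, in none of the 4 clamp and nucleotide promoters, in none of the 3 for G1 and S phase cyclins and E2F, in 4 of 5 for the G2 and M phase cyclins and kinases, in all 4 for the spindle checkpoint, in 3 of 6 for the centromere and kinetochore, in 5 of 6 for the spindle and cytokinesis, and in both Mki67 and Top2a. A match to both CCAAT and CHR was held by 17 members, and 6 members had none of the motifs. The window mattered. Within 150 bases before the start CCAAT was kept by 25 members against 27.7% of all promoters, while CHR was found in 8 (11.2% of all) and E2F in 4 (1.44% of all).

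The 150 bases before the start are printed for mitotic genes whose levels are described below, read in the direction of the gene. Capitals mark the motifs in either direction, so ATTGG is CCAAT and TTCAAA is CHR on the other strand. The windows are chr10:69352913-69353062 for Cdk1, chr9:70421555-70421704 for Ccnb2, chr4:118437344-118437493 for Cdc20, chr7:135716380-135716529 for Mki67 and chr11:99024190-99024339 for Top2a, all on the minus strand.
Cdk1: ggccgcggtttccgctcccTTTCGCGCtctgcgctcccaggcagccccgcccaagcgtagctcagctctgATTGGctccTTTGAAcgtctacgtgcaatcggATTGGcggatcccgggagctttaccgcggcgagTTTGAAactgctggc
Ccnb2: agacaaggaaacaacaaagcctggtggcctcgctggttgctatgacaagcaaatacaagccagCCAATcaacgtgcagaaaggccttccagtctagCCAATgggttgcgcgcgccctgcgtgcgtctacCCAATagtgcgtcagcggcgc
Cdc20: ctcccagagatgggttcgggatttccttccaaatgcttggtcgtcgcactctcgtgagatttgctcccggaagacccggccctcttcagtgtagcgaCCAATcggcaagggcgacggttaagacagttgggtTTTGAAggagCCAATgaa
Mki67: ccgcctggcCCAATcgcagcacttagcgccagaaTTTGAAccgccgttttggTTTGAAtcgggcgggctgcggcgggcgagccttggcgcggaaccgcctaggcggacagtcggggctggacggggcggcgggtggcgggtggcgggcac
Top2a: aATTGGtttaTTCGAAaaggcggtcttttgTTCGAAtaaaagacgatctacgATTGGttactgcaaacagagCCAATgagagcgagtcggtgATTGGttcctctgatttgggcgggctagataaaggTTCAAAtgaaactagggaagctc
Cdk1 held 2 CCAAT, 2 CHR and 1 E2F matches in this stretch. Top2a had 4 CCAAT and 3 CHR matches there, Mki67 1 and 2, Cdc20 2 and 1, and Ccnb2 3 CCAAT boxes with no CHR. The CHR match counted above for Ccnb2 lay outside these 150 bases. Of the mitotic genes not printed, Ccnb1, Plk1, Aurka, Bub1 and Bub1b had no CHR match in this stretch either.

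For replication, the same stretch is shown for genes of helicase loading, where the E2F octamer was found. Mcm5 lies at chr8:75109359-75109508 on the plus strand, Mcm6 at chr1:128359706-128359855 on the minus strand and Cdc6 at chr11:98908001-98908150 on the plus strand, and capitals mark the same motifs.
Mcm5: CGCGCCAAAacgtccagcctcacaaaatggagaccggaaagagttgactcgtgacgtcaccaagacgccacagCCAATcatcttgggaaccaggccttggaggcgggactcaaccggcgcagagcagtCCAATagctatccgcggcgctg
Mcm6: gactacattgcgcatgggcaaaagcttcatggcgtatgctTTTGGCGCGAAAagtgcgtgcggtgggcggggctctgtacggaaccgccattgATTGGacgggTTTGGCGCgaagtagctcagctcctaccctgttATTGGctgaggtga
Cdc6: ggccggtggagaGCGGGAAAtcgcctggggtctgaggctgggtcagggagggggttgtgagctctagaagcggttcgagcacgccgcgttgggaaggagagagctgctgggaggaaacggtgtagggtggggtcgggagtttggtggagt
Mcm6 had 3 E2F matches, of which a pair overlaps, beside 2 CCAAT boxes. Mcm5 had 1 E2F match that begins in this stretch and 2 CCAAT boxes, its first capital being part of an overlapping E2F match that begins 3 bases before the stretch, and Cdc6 had 1 E2F match alone.

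Levels are given as CPM. The summed CPM of the 46 genes was nearly the same in the 3 proliferating sources and far lower in the adult. It was 11619 ± 751 (SD, n = 12) in embryos, 12681 ± 202 (n = 4) in ES lines, 12127 ± 1229 (n = 24) in fetal livers and 321 ± 77.5 (n = 24) in adult livers. As a share of reads on genes this was 1.16%, 1.27%, 1.21% and 0.0321%. The highest adult liver, at 480 CPM, lay far below the lowest fetal liver, at 9732 CPM.

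**Figure D1:**
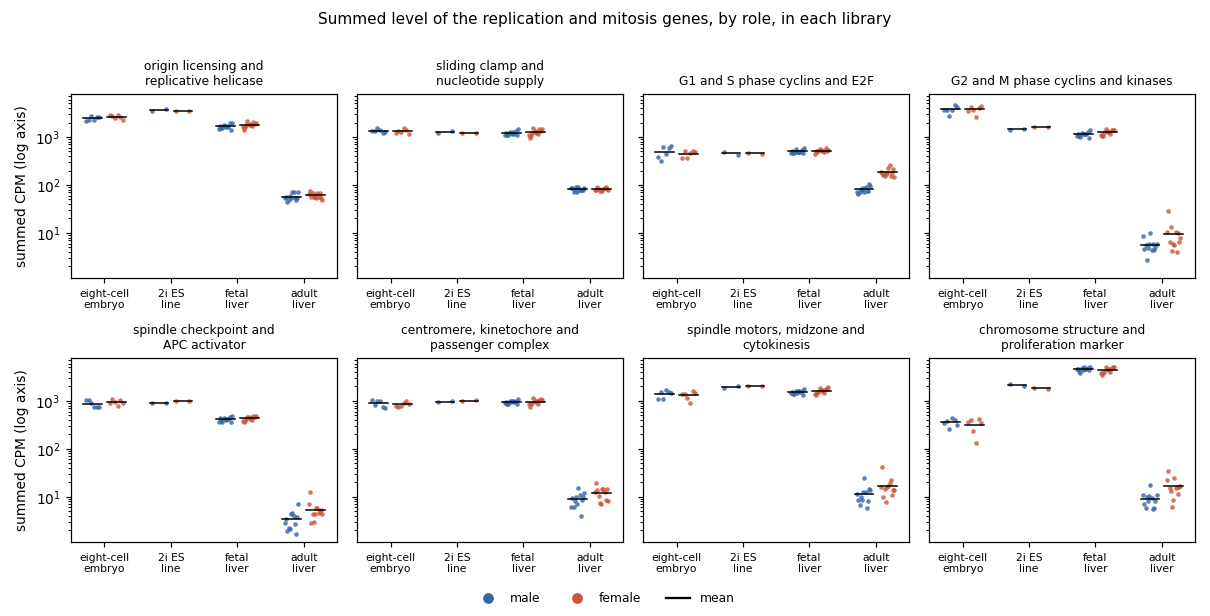
Summed CPM of the members of each of the 8 roles in each library (log axis), by stage and sex, with 1 point a library and bars at the means. Adult livers lie below every other library in all roles, and the G2 and M phase genes stand highest in the embryos, at 2631 to 4638 CPM.

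The make-up of that sum was not the same across stages, as the plot of summed CPM by role shows. G2 and M phase cyclins and kinases reached 3768 ± 615 CPM in embryos, against 1517 ± 95.6 in ES lines and 1202 ± 146 in fetal livers. Licensing and helicase genes were highest in ES lines, at 3584 ± 136 CPM, against 2554 ± 257 in embryos and 1729 ± 198 in fetal livers. Mki67, which codes for the Ki-67 protein that coats mitotic chromosomes and marks dividing cells, made up 0.717% of the sum in embryos, 3.20% in ES lines, 28.1% in fetal livers and 2.21% in adult livers. Without Mki67 and the D cyclins, the other 42 genes summed to 11422, 11972, 8415 and 187 CPM.

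Levels of different genes were compared per kilobase of transcript. On that scale the leading member was Ccnb1 in embryos (617 CPM per kb), Top2a and Pcna in ES lines (299 and 295) and Mki67 in fetal livers (339). In adult livers it was Pcna in males (21.2, with Ccnd1 at 8.70) and Ccnd1 in females (36.9, with Pcna at 22.2). The subunits of the hexameric helicase lay close together, from 52 for Mcm4 to 118 for Mcm6 in embryos, 115 to 210 for the same genes in ES lines and 58 to 135 in fetal livers. In adult livers they ran from 1.11 for Mcm5 to 6.03 for Mcm7. Mcm7 carries microRNA genes within its body on the same strand. Embryo libraries came from another protocol, and their difference from ES lines moved with transcript length, as given below. Ranks per kilobase in embryos may therefore favour short transcripts, which was not tested.

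The first comparison asked how far the machinery differed between fetal and adult liver, which were prepared with the same kit. A member was called when edgeR's quasi-likelihood test gave a Benjamini-Hochberg adjusted p-value under 0.05 over all genes tested and the absolute log2 difference, after TMM scaling, was above 1. In the adult 44 of 46 members were called lower and none higher, where 23.8% of the 13026 genes tested were called lower. The median log2 difference was -5.74 for the members and -0.05 for all genes tested. For 45 members the highest adult liver lay below the lowest fetal liver, as it did for 37.6% of all genes tested, and Ccnd1 alone overlapped. In bulk tissue, fewer dividing cells and less of these RNAs per cell cannot be told apart.

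Markers of other cells moved with this comparison, and their part in it was not tested. All 6 erythroid markers tested were lower in the adult (median log2 -8.06), and their sum fell from 4097 to 5985 CPM in fetal livers to 15.7 to 199 in adult livers. Slc4a1, the anion exchanger of red cells, was high in every fetal liver, at 2192 to 3298 CPM. The globin genes Hbb-b1 and Hba-a1 were at 0 reads in 21 and 23 of the 24, which is not read as absence of globin RNA. Alignments not uniquely placed were counted for no gene. They were 23.2% to 28.5% of those counted or set aside in fetal livers, and their part in these zeros was not tested. Of the 10 hepatocyte markers 8 were higher in the adult, and their sum was 22043 to 29774 CPM in fetal and 43215 to 58479 in adult livers. Of 9 leukocyte markers tested 7 were lower and Clec4f, of Kupffer cells, was higher. Of 6 endothelial and stellate markers 2 were lower.

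Mki67 (chr7:135689784-135716361, minus strand, GRCm38) had the largest difference. It measured 2526 to 4012 CPM in fetal livers with a median of 3469, and 2.94 to 18.2 in adult livers with a median of 5.78. No adult liver came near the lowest fetal liver, and the log2 difference was -8.45 (SE 0.11, adjusted p = 1.2e-51), or 350-fold. Top2a (chr11:98992943-99024189, minus strand), the topoisomerase that untangles replicated DNA, went from 913 to 1313 CPM with a median of 1082 down to 2.12 to 16.2 with a median of 5.04. That is 135-fold, or -7.08 (SE 0.10).

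Genes of entry into mitosis fell as a group, with all 7 called and a median log2 of -6.42. Cyclin B1 (Ccnb1, chr13:100778650-100786570, minus strand) measured 175 to 292 CPM in fetal livers with a median of 235, and 0 to 4.73 in adult livers with a median of 0.608, a difference of -7.68 (SE 0.12). No Ccnb1 read was counted in 2 of the 24 adult livers. Its kinase Cdk1 (chr10:69335146-69352938, minus strand) fell from 112 to 173 CPM, median 138, to 0.277 to 6.75, median 1.20, which was -5.86 (SE 0.11) or 57.9-fold. Aurka, the centrosomal kinase, differed least in this group (-5.85), and Plk1 was at 0 reads in 12 of 24 adult livers.

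All 4 checkpoint genes fell (median -6.12). The log2 difference was -7.32 for Bub1, a checkpoint kinase, and -5.64 for the related Bub1b. The 6 centromere and kinetochore genes had a median of -6.57, from -7.10 for the kinetochore motor Cenpe to -3.42 for Cenpa, the histone that marks centromeres. The 8 spindle and cytokinesis genes had a median of -6.29, from -7.31 for the microtubule binder Nusap1 to -5.17 for the midzone motor Kif23.

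All 9 licensing and helicase genes were called lower (median -4.16). The largest difference was that of Cdc6, which loads the helicase, at -7.46 (176-fold), and the smallest that of Gmnn, which codes for geminin, at -2.35 (5.08-fold). Mcm2 went from 195 to 299 CPM, median 241, to 2.97 to 9.22, median 5.25, a difference of -4.98 (SE 0.08). The groups were again far apart, by 31.6-fold.

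The clamp and nucleotide genes kept a measurable level in every adult liver. Pcna, the sliding clamp, measured 27.7 to 43.0 CPM in adult livers with a median of 32.5, against 281 to 455 with a median of 357 in fetal livers, a difference of -2.88 (SE 0.05) or 7.37-fold. Tyms, which makes thymidylate, had the smallest called difference of the 46 genes, -1.32 (SE 0.05, 2.49-fold), with 20.8 to 32.6 CPM in the adult. Rrm2, the S phase subunit of ribonucleotide reductase, had -5.30, and Rrm1, its partner, -4.33. In adult liver the mean level was 2.43 CPM per kb for Rrm2 and 3.86 for Rrm1.

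Of the D cyclins, which couple growth signals to the cycle, Ccnd1 and Ccnd2 were not called. Ccnd1 (chr7:144929931-144939925, minus strand) measured 49.9 to 97 CPM in fetal livers with a median of 72.4, and 21 to 226 in adult livers with a median of 71.8. The stages overlapped, and the log2 difference of +0.45 (SE 0.08, adjusted p = 6.6e-07) was not past 1 and turned to -0.12 when library totals were used without TMM. It was also -0.52 among males and +1.37 among females, a contrast taken up with the sex differences.

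Ccnd2 (chr6:127125162-127152193, minus strand) went from 43.1 to 102 CPM, median 57.9, to 15.5 to 28.6, median 20.2. These ranges did not overlap, and its difference of -0.98 (SE 0.07) lay just short of the threshold, which it passed under 5 alternatives that kept that threshold. Ccnd3 was called lower at -2.42. The S phase cyclins Ccne1 (-5.63) and Ccne2 (-5.41) and the activating factor E2f1 (-3.17) were called lower.

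**Figure D2:**
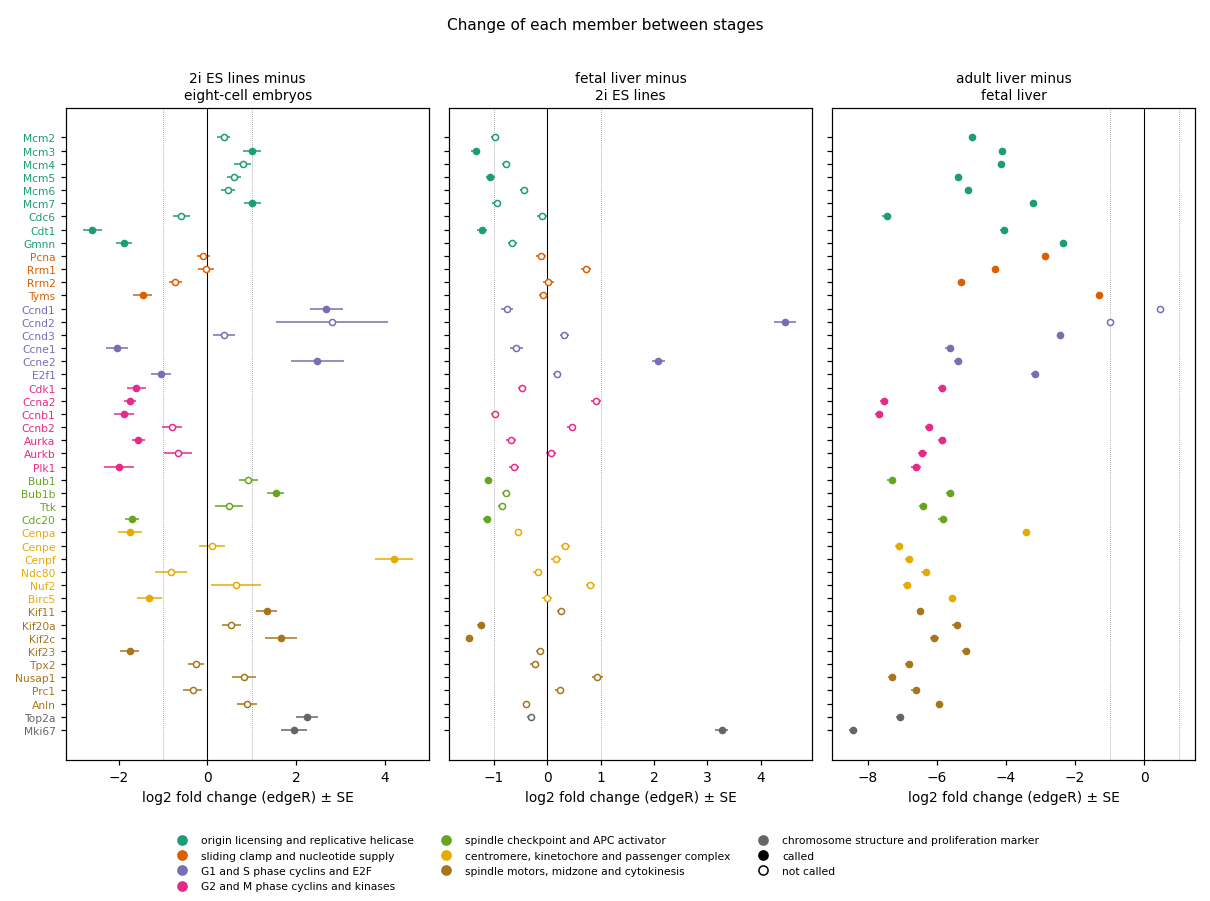
Log2 difference with its standard error for each of the 46 members in the 3 stage comparisons, grouped by role, with filled points for called members. Adult minus fetal values lie between -3.42 and -8.45 for the mitotic roles and between -1.32 and -7.46 for licensing, clamp and nucleotide genes, with Ccnd1 at +0.45.

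At these depths many adult values rest on few reads. The median adult count was 3 reads or fewer for 17 members and under 10 for 29, and 20 members had 0 reads in at least 1 adult liver, though none in all. Only 7 members reached 10 CPM on average in the adult, against 46 in fetal livers, 45 in ES lines and 44 in embryos.

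Other genes of the pathway were counted in the same comparison. Lower in the adult were 10 of 14 genes of origin recognition, CMG loading and firing, 15 of 18 replicative polymerase and fork genes, 7 of 8 interphase kinases with CDC25 and Wee1, and 8 of 10 cohesin, condensin and separase genes. Pttg1, which codes for securin, was higher by 1.06 (SE 0.06), with 12.2 to 19.6 CPM in fetal and 14.6 to 31.7 in adult livers. Of 17 E2F, pocket protein and MuvB genes 12 were lower and Rbl2, a pocket protein of resting cells, was higher by 1.29 (SE 0.04). Foxm1, the factor that drives G2 genes, fell from 26.6 to 51.2 CPM to 0 to 3.04 (log2 -5.69), and Mybl2, the B-Myb gene, from 61.7 to 94.6 to 0 to 1.58 (-6.87).

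Inhibitors of the kinases did not take the opposite course. Of 5 tested CDK inhibitor genes 4 were lower in the adult. Cdkn1b, which codes for p27, measured 82.0 to 113 CPM in fetal and 19.6 to 35.5 in adult livers, a difference of -1.27 (SE 0.05). Cdkn1a, which codes for p21, had -0.85 (SE 0.25) and was not called.

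The next comparison set fetal liver beside 2i ES cells, both prepared with the same kit. It shares the fetal livers with the comparison above, and tissue is set against cultured cells with 2 lines of each sex. Only 10 of 46 members were called, 3 higher in fetal liver where 33.1% of all genes tested were higher, and 7 lower where 23.5% were lower. The median log2 difference was -0.27 for the members and +0.08 for all genes.

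Mki67 was called higher in fetal liver. It measured 302, 423, 443 and 456 CPM in the ES lines and at least 2526 in every fetal liver, 9.66-fold higher (+3.27, SE 0.13, adjusted p = 1.6e-21). Top2a, the other chromosome gene, measured 1912, 1579, 1428 and 1326 CPM in the ES lines and 913 to 1313 in fetal livers, a difference of -0.30 (SE 0.08) that was not called. The ES lines were all above the fetal livers for Top2a and all below them for Mki67.

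The other genes higher in fetal liver were cyclins of G1 and S. Ccnd2 measured 4.14, 3.79, 2.70 and 2.13 CPM in the ES lines against 43.1 to 102 in fetal livers, a 22-fold difference (+4.46, SE 0.20). Ccne2 measured 34.2, 35.3, 33.3 and 27.2 CPM against 83.2 to 154 (+2.08, SE 0.12). No library of either source overlapped for these cyclins. The other members of the group were not called, with log2 values of -0.76 for Ccnd1, +0.32 for Ccnd3, -0.58 for Ccne1 and +0.18 for E2f1.

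The 7 members lower in fetal liver came from licensing, the checkpoint and the spindle. They were Kif2c (-1.46), a motor that takes microtubules apart at kinetochores, the midzone motor Kif20a (-1.25), the helicase subunits Mcm3 (-1.34) and Mcm5 (-1.07), the loading factor Cdt1 (-1.23), Cdc20 (-1.13) and Bub1 (-1.11). Cdc20 missed the threshold among males alone, at -0.99. The other helicase subunits had -0.98 for Mcm2, -0.78 for Mcm4, -0.44 for Mcm6 and -0.95 for Mcm7, beside -0.10 for Cdc6 and -0.66 for Gmnn.

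The remaining members lay within a log2 unit of 0. Clamp and nucleotide genes had -0.12 for Pcna, +0.73 for Rrm1, +0.02 for Rrm2 and -0.08 for Tyms. Mitotic cyclins and kinases had -0.48 for Cdk1, +0.91 for Ccna2, -0.98 for Ccnb1, +0.45 for Ccnb2, -0.68 for Aurka, +0.07 for Aurkb and -0.63 for Plk1. In the checkpoint Bub1b had -0.78 and Ttk -0.85.

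At the kinetochore the values were -0.54 for Cenpa, +0.34 for Cenpe, +0.16 for Cenpf, -0.18 for Ndc80, +0.81 for Nuf2 and -0.00 for Birc5. Spindle genes had +0.26 for Kif11, -0.13 for Kif23, -0.23 for Tpx2, +0.94 for Nusap1, +0.23 for Prc1 and -0.39 for Anln. Many of these small differences passed the p-value alone, by which 37 of 46 members differed, 13 higher and 24 lower, against 89.5% of all genes tested.

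Outside the 46 genes, 5 of 17 E2F, pocket protein and MuvB genes were higher in fetal liver and 2 lower, with a median of +0.16. Mybl2 measured 642 to 693 CPM in the ES lines and was lower in fetal liver (-2.86, SE 0.06), while Foxm1 had +0.06 (SE 0.09) and was not called. Cdkn1a was lower in fetal liver (-3.37) and Cdkn1b higher (+2.06).

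The third comparison set ES lines beside eight-cell embryos, with the protocol differing between them, and it shares the ES lines with the second. Of the 46 members 24 were called, 10 higher in ES lines where 31.4% of all genes tested were higher, and 14 lower where 19.9% were lower. The split depended on scaling. With library totals alone, or with the size factors of DESeq2, it was 15 higher and 12 lower, and the median of all genes moved from +0.47 to +0.82 or +0.79, while the member median moved from +0.03 to +0.39 or +0.36. DESeq2 itself gave 14 higher and 12 lower.

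Of the 7 G2 and M phase cyclins and kinases 5 were lower in ES lines and none higher. Ccnb1 measured 781 to 2106 CPM in embryos with a median of 1598, against 482, 536, 572 and 552 in the ES lines, a difference of -1.88 (SE 0.23, adjusted p = 5.0e-06) or 3.68-fold. Cdk1 went from 301 to 734 CPM, median 517, to 189, 215, 256 and 250 (-1.60, SE 0.22). For both genes every ES line was below every embryo. Also lower in ES lines were Plk1 (-1.99), the cyclin A gene Ccna2 (-1.75) and Aurka (-1.56). From other mitotic roles came Cdc20 (-1.70), Kif23 (-1.76), Cenpa (-1.75) and Birc5 (-1.31), which codes for survivin. The Birc5 call was lost with DESeq2 or its size factors (both -0.99) and with library totals (-0.96). Aurkb, at -0.66, and Ccnb2, at -0.79, were not called.

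Among G1 and S phase genes the family members diverged. Ccne1 was 192 to 478 CPM in embryos with a median of 294, and 104, 78.9, 98.8 and 106 in ES lines (-2.04, SE 0.25), while Ccne2 was 1.25 to 12.6 with a median of 3.34, and 34.2, 35.3, 33.3 and 27.2 in ES lines (+2.48, SE 0.59). Ccnd1 was 5.51 to 34.9 CPM in embryos with a median of 15.3, and 207, 126, 131 and 104 in ES lines (+2.69, SE 0.37). Ccnd2 had 0 reads in 8 of 12 embryos, and with +2.82 (SE 1.26, adjusted p = 0.068) it was not called, and neither was Ccnd3, at +0.38. E2f1 was lower in ES lines at -1.04, a call that was lost under other scalings.

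**Figure D3:**
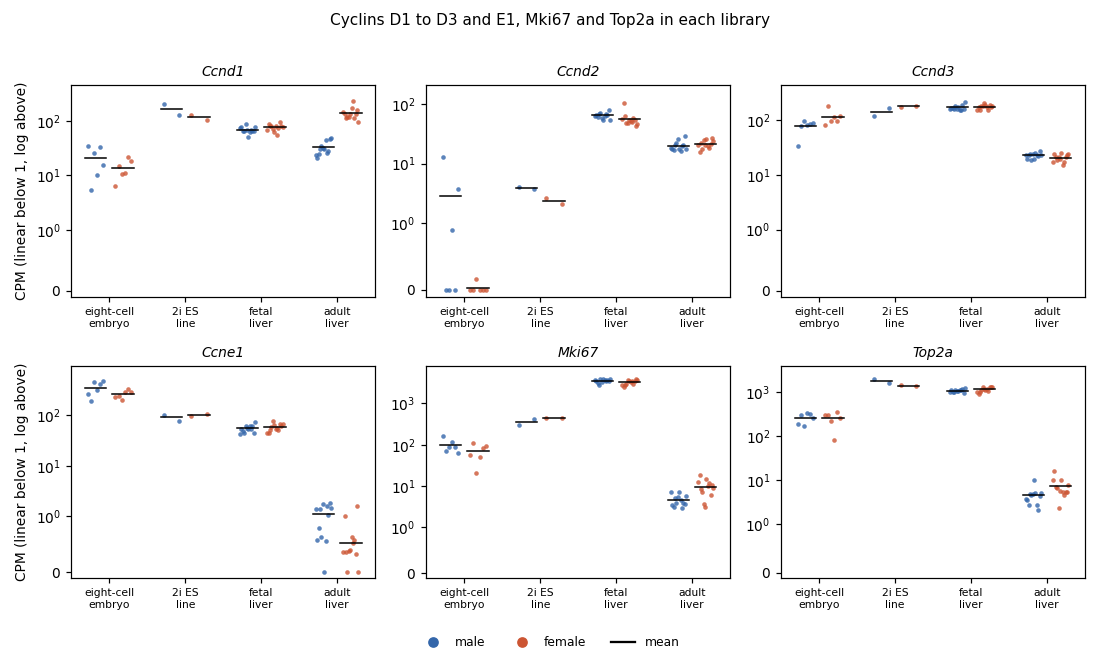
CPM in each library (axis linear below 1 and log above) of the D cyclins, Ccne1, Mki67 and Top2a by stage and sex, with bars at the means. Mki67 stands highest in fetal liver, at 2526 to 4012 CPM, and Ccnd1 in adult liver splits into males at 21 to 47.9 and females at 95.7 to 226.

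Licensing split as well. The loading factor Cdt1 measured 362 to 730 CPM in embryos with a median of 527, and 123, 131, 122 and 103 in ES lines, 6.06-fold lower (-2.60, SE 0.21). Gmnn, which codes for its inhibitor, was lower too (-1.87), as was Tyms (-1.46). Mcm3 and Mcm7 were higher, by 1.01 and 1.02. The other helicase subunits and Cdc6 were not called, with +0.36 for Mcm2, +0.79 for Mcm4, +0.60 for Mcm5, +0.46 for Mcm6 and -0.59 for Cdc6, nor were Pcna (-0.09), Rrm1 (-0.04) and Rrm2 (-0.72).

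The other members called higher in ES lines came from the chromosome, kinetochore, checkpoint and spindle roles. Cenpf (chr1:189640606-189688086, minus strand), a kinetochore protein, measured 3.01 to 38.3 CPM in embryos with a median of 14.2, against 306, 388, 377 and 411 in ES lines, 18.5-fold higher (+4.21, SE 0.43). Top2a was higher by 2.25, Mki67 by 1.95, Kif2c by 1.67, Bub1b by 1.54 and Kif11, the motor that separates the poles, by 1.34. Not called were Bub1 (+0.92), Ttk (+0.49), Cenpe (+0.10), Ndc80 (-0.81), Nuf2 (+0.65), Kif20a (+0.54), Tpx2 (-0.26), Nusap1 (+0.83), Prc1 (-0.33) and Anln (+0.90).

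Transcript length moved with this comparison. Over all tested genes the median log2 difference, ES minus embryo, was -0.37 for transcripts under 2 kb, +0.19 from 2 to 3 kb, +0.71 from 3 to 4 kb, +1.07 from 4 to 6 kb and +1.69 over 6 kb. The members ran from -1.43 for the 8 shortest, of which 5 were lower and none higher, to +2.39 for the 4 longest, of which 2 were higher and none lower. Across the 46 members Spearman's correlation of the difference with length was 0.62, against 0.23 across 12219 genes, and it was 0.14 and -0.20 for the other stage comparisons. Genes share libraries and are not independent, so this is a description, and the part of length in the result was not tested.

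**Figure D4:**
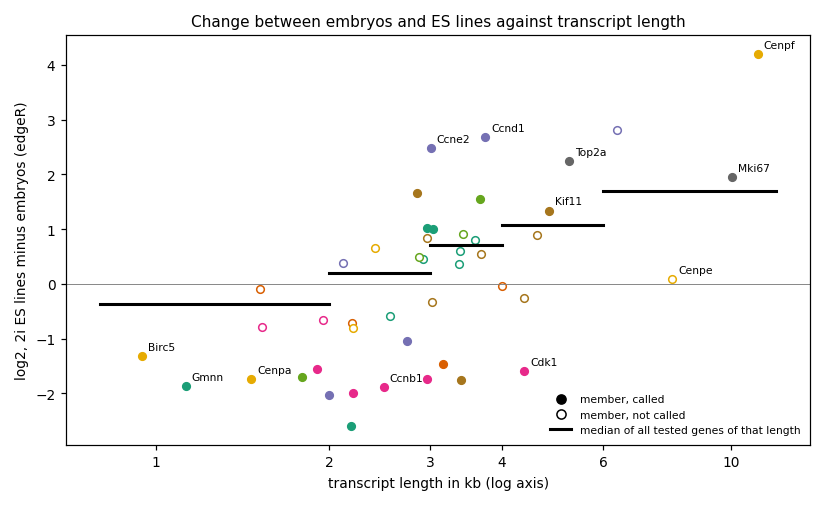
Log2 difference of ES lines minus eight-cell embryos (vertical axis) for each member against transcript length in kb (log axis), filled where called, with a bar at the median of all tested genes in each length bin. Cenpf (+4.21) and Mki67 (+1.95), with long transcripts, lie above Cenpa (-1.75) and Gmnn (-1.87), with short ones, and the bars step from -0.37 to +1.69.

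Among the regulators, Mybl2 was higher in ES lines by 1.10 (SE 0.27), Foxm1 had +0.81 (SE 0.35) and Cdkn1a +0.50 (SE 0.41), neither of them called. Cdkn1b had no read in any of the 12 embryos, and its lowest ES line lay at least 30.9-fold above the level of 3 reads in the shallowest embryo. Pluripotency markers summed to 2451 to 2777 CPM in ES lines and 362 to 1191 in embryos, and to 7.10 at most in livers.

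Within a stage, variation between samples was described by the coefficient of variation (CV) of CPM within each sex. The median CV of the members was 26.5% in embryos, 5.36% in ES lines, 11.5% in fetal livers and 56.6% in adult livers. All genes of at least 1 CPM had 53.6%, 9.29%, 12.4% and 19.5%. In level, 44 members in embryos, 45 in ES lines and 46 in fetal livers reached 10 CPM on average. In embryos, ES lines and fetal livers the members of at least 10 CPM had 26.2%, 5.34% and 11.5%. All genes of at least 10 CPM had 38.1%, 7.13% and 10.3% there, so in fetal livers the members were not below them. In embryos Mcm2 varied least, at 13.1%, and Ccnd2 most, at 209%, with 12.8 CPM in its highest embryo and 0 reads in 8 of 12. Among adult livers Pcna varied least, at 11.7%, and Plk1 most, at 119%. Few reads lie behind the adult value. Counting error alone gives a median of 43.1% there, and the 7 members of at least 10 CPM had 17.2%, near the 15.3% of all such genes.

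The design also compared the sexes at each stage. The same edgeR test was used, a member being called when its adjusted p was under 0.1 and its male to female log2 difference exceeded 0.5 in size, and the samples are single embryos, lines or animals, so p-values measure the spread between these samples. In eight-cell embryos none of the 45 members tested was called, against 0.264% of all genes. DESeq2 called none either, and 2 had an unadjusted p under 0.05 in edgeR, Ccnd3 (-0.62, SE 0.27) and Ccnb2 (-0.61, SE 0.24). That was so for 353 of all 9087 genes tested.

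In ES lines none of 46 was called by edgeR or DESeq2, against 9.50% of all genes. An unadjusted p under 0.05 was found for 7, and for 3088 of all 12678 genes tested. Cdk1 (-0.36), Cdc20 (-0.41) and Nusap1 (-0.36) passed the p-value alone, as 11.2% of all genes did. With 2 lines of each sex the result hangs on single lines. Leaving out a line leaves 1 of its sex. The member median log2, -0.08 with all lines, was then between -0.12 (without male line 2) and -0.01 (without male line 1).

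In fetal livers none of 46 was called by edgeR or DESeq2, against 4.64% of all genes. An unadjusted p under 0.05 was found for 13, and for 5236 of all 12930 genes tested. The values ran from -0.23 for Mcm5 to +0.27 for Cdt1. These 2 and 8 more passed the p-value alone, Mcm3, Mcm7, Gmnn, Cdk1, Ccnb1, Ccnb2, Kif11 and Prc1, all 8 with higher values in females. By the p-value alone 37.2% of all genes differed. Counted reads outside genes made up 39.9% to 49% of each male library and 34.1% to 38.1% of each female one, without overlap. With that share as a covariate the calls over all genes went from 600 to 9 and the member median from -0.10 to +0.04. Because the sexes did not overlap in it, effects of this share and of sex cannot be told apart.

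In adult livers 17 members had enough reads to be tested and 4 were called. Male-higher was 1 member, where 3.01% of all genes were male-higher, and female-higher were 3, where 6.49% were. Ccnd1 measured 21 to 47.9 CPM in males with a median of 30.6 and 95.7 to 226 in females with a median of 132. Every female was above every male, by 4.27-fold in the fit (-2.09, SE 0.14, adjusted p = 3.1e-12).

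Mki67 measured 2.94 to 7.29 CPM in males, median 4.14, and 3.15 to 18.2 in females, median 9.46 (-1.03, SE 0.22, adjusted p = 0.00082). Top2a measured 2.12 to 10.1 in males, median 4.38, and 2.25 to 16.2 in females, median 5.96 (-0.76, SE 0.24, adjusted p = 0.020). The sexes overlapped for both. Rrm2 went the other way, with 3.86 to 9.61 CPM in males, median 6.43, and 1.97 to 8.2 in females, median 3.76 (+0.58, SE 0.21, adjusted p = 0.043). The summed CPM of all 46 genes was 213 to 301 in males and 324 to 480 in females, and that of the 42 genes left without Mki67 and the D cyclins 145 to 226 and 154 to 279.

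Markers of other cells differed between the adult sexes as well, and their part was not tested. All 4 leukocyte markers tested, Cd68, Clec4f, Emr1 and Ptprc, were called higher in females (median -0.56), and the summed markers were 137 to 269 CPM in males and 199 to 391 in females. The erythroid sum was 161 to 199 CPM in males and 15.7 to 45.8 in females. Alas2, the only erythroid marker with enough reads, was higher in males by 2.79, while Gata1 was at 0 reads in 12 males and 11 females. Alignments not uniquely placed, as a share of all that were counted or set aside, were 42.2% to 61.1% in adult males (median 50%) and 32.7% to 43.2% in females (median 37.6%), and their part was not tested either.

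Whether the sex difference itself differed between adult and fetal liver was tested as an interaction, called at an adjusted p under 0.1. Of the 46 members 15 were called, a share like that of all genes, of which 4382 of 13026 were called. The 3 with a more positive male minus female difference in the adult (18.7% of all genes) were Ccne1 (+1.18, SE 0.46, adjusted p = 0.050), E2f1 (+0.60) and Rrm2 (+0.58). The 12 with a more negative one (14.9% of all genes) were led by Ccnd1 (-1.89, SE 0.15, adjusted p = 6.0e-14), followed by Ccnb1 (-1.35), Bub1 (-1.33), Cenpe (-1.25), Mki67 (-1.11, adjusted p = 0.00015) and Anln (-1.01), then Ccna2 (-0.80), Cdk1, Kif23 (both -0.77), Cdt1 (-0.76), Bub1b (-0.72) and Top2a (-0.63).

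Most of these rest on few adult reads. Only Ccnd1, Mki67, Top2a and Rrm2 among them had enough reads to be tested in adult livers alone. Cenpe had a median of 3 reads in adult males, from 0 to 2.24 CPM, and 4.5 reads in females, from 0 to 3.71 CPM. Anln, the cytokinesis scaffold anillin, had 0 to 2.80 CPM in males, median 1.42, and 1.20 to 6.08 in females, median 2.49. Ccnb1 had a median of 1 read in males and 2 in females, with 4.73 CPM in the highest female. The sexes overlapped in adult liver for all 3.

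A single adult female, replicate 14, had the highest sum of G2 and M phase genes, 28.0 CPM, and among males replicate 7 had 10.1. Without that female the interaction was called for 10 members, with Bub1 (-0.95), Ccna2 (-0.49), Ccnb1 (-0.91), Cdk1 (-0.46), Cdt1 (-0.68) and Kif23 (-0.64) lost, and without that male for 18. With the share of reads outside genes as a covariate 10 were called, with Bub1 (-1.37), Ccne1 (+1.02), E2f1 (+0.38), Kif23 (-0.77) and Rrm2 (+0.44) lost. Over all genes the calls were 4193 of 13119 without that female, 4177 of 13118 without that male and 2352 of 13026 with the covariate. Ccnd1, Mki67, Cenpe, Anln, Bub1b and Top2a were called in each of these fits. Cenpe, Anln and Bub1b, however, had too few reads to be tested in adult livers alone.

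**Figure D5:**
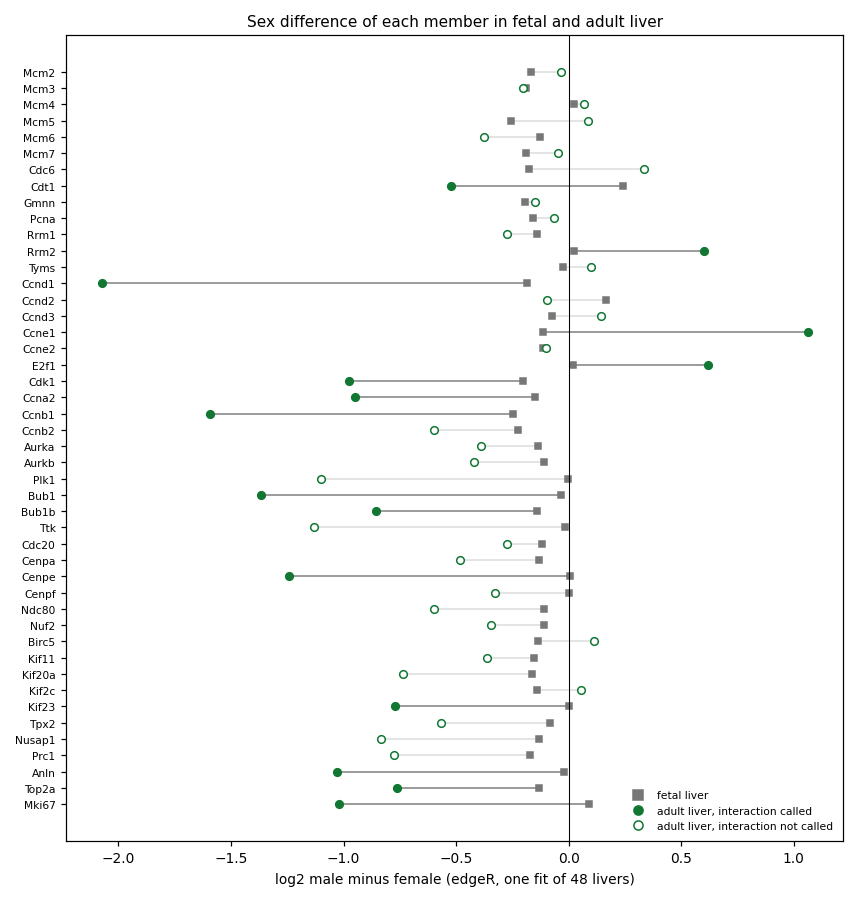
Log2 male minus female difference (horizontal axis) in fetal (squares) and adult liver (circles, filled where the interaction was called) for each of the 46 members in rows, from 1 fit of all 48 livers. Ccnd1 lies furthest left, at -2.08 in the adult and -0.18 in the fetus, and 25 of the 27 members of mitotic roles lie below 0 in the adult. Of those 27 only Cenpa, Mki67 and Top2a had enough reads to be tested in adult livers alone.

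In that joint fit, 25 of 27 members of the mitotic roles had a higher fitted level in adult females, with a median of -0.76, and 23 of 27 in fetal females, with a median of -0.13. Of the 19 replication and G1 to S members it was 11 in the adult, median -0.05, and 14 in the fetus, median -0.13. Of all 13026 genes tested 50.9% had a higher fitted level in adult females and 62.5% in fetal females. With the share of reads outside genes as a covariate the median of the members among fetal livers was +0.04, but the fetal sexes did not overlap in that share. These are signs of fitted values from the same livers, most of them not called singly, and they are not independent measurements. Of the mitotic roles only Cenpa, Mki67 and Top2a had enough reads to be tested in adult livers alone. Foxm1, outside the 46, had an interaction of -1.61 (SE 0.55, adjusted p = 0.024), but too few reads to be tested in adult livers alone. With it, 4 of the 17 E2F, pocket protein and MuvB genes were called more negative. Another 3 were called more positive, and Mybl2 was not called.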

How the data were processed

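RNA-seq libraries of 64 samples were read as deposited. The authors aligned reads to mm10 with TopHat2 2.0.4 and Bowtie2 2.1.0, removed duplicates with Picard and deposited raw counts per gene from HTSeq, and the strand setting of the counting is not given in the sources used here. Each file lists 23338 genes, and 5 further HTSeq rows that name no gene were left out of totals and tests and used only for the share of reads outside genes. From these counts CPM was computed on the totals of reads on genes, and tests were run with edgeR 4.0.16 and limma 3.58.1 in R 4.3.3: TMM scaling, filterByExpr by group, glmQLFit with robust set and two-sided glmQLFTest on groups by stage and sex, with Benjamini-Hochberg adjustment over all genes tested. The study itself tested with DESeq2. Fits were tested on simulated data. Tables and figures used Python 3.11.15 with numpy 2.4.6, pandas 2.3.3 and matplotlib 3.10.9.

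The 46 members, their roles, the other gene lists and the thresholds were chosen with earlier results of these data known. Values are printed for Mki67, Top2a, Cdk1, Ccnb1, Pcna, Mcm2, the D cyclins, Ccne1 and E2f1, for the extremes of each role in adult against fetal liver, for members not called or against their role in a stage comparison, for members called between sexes or by the interaction, and for the extremes of spread. Of the other lists Foxm1, Mybl2, Cdkn1a, Cdkn1b and genes against the majority direction are named. Alternatives were DESeq2 1.42.0, its size factors, library totals alone, no low-count filter, no fold threshold, single sexes, a replicate block, single libraries left out and the share of reads outside genes as a covariate. The libraries left out in adult liver, and the covariate in the interaction, were chosen after the values were seen. Transcript length is that of the longest principal transcript of the GENCODE annotation of GRCm38. Gene bodies of 9 members overlap another counted gene on the opposite strand. Depth is given as reads on genes, and floors of 3 reads cover counting error only. Values of 1 further marker gene are not reported here.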

Additional observations from a re-analysis of the deposited data

Results flagged for a closer look

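For 15 members the sex difference, male minus female on the log2 scale, differed between adult and fetal liver in edgeR's interaction test at an adjusted p under 0.1. The adult difference was more negative for Ccnd1 (-1.89), Ccnb1 (-1.35), Bub1 (-1.33), Cenpe (-1.25), Mki67 (-1.11), Anln (-1.01), Ccna2 (-0.80), Cdk1 (-0.77), Kif23 (-0.77), Cdt1 (-0.76), Bub1b (-0.72) and Top2a (-0.63). It was more positive for Ccne1 (+1.18), E2f1 (+0.60) and Rrm2 (+0.58). Of all 13026 genes tested 14.9% were called with a more negative difference and 18.7% with a more positive one. In total 4382 genes were called, a share like that of the members. Among the members called here, only Ccnd1, Mki67, Top2a and Rrm2 had enough reads to be tested in adult livers alone.

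Among 92 groups of 6 embryos, 1 for each gene and sex, 10 held an embryo far from the others by Dixon's criterion. Chance marks about 1 in 20 groups if values are normally distributed and groups independent, but these groups share the same embryos. The share over all genes was not computed, so the count cannot be read as a trait of the members. Male embryo 1 had the highest Ccnd2 of its sex, at 12.8 CPM, and the lowest Ccnd3 and Kif11, at 33.9 and 52.5 CPM. Female embryo 8 had the highest Ccnd3 and Ccnb2 of its sex, at 181 and 236 CPM. Male embryo 3 stood out for Mcm5, at 402 CPM, and Ttk, at 79.8 CPM. The other embryos were female 7 with Mcm2 at 295 CPM, male 4 with Tpx2 at 441 CPM, and female 9 with Ccnd2 at 0.172 CPM. That value is 1 read, with the other 5 females at 0, so this one of the 10 was set by a single read.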

How the results depend on the processing

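The adult and fetal livers gave 44 to 46 member calls under every alternative run. For single members in that comparison 2 results changed sign, both for Ccnd1, which had -0.12 with library totals without TMM and -0.52 among males. Fetal liver against ES cells gave 10 to 14 calls except with the p-value alone, which gave 37, and ES cells against embryos gave 22 to 35. Without each ES line in turn these counts were 10 to 12 and 23 to 24. The lone line left of its sex was assumed to vary like the other groups.

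Sex calls depended on the fold threshold, and the p-value alone gave 3 in ES lines and 10 in fetal liver, against 11.2% and 37.2% of all genes. Without each ES line in turn the ES count was 0 to 5. Each of those fits leaves 1 line of a sex, and the calls over all genes also changed with the line left out. That range of the ES count therefore cannot be read as a trait of the members. Their median log2 in those fits was between -0.12 and -0.01. In adult liver no low-count filter gave 11 calls among all 46 members, 2 higher and 9 lower in males. Over all genes 1518 of 17265 were called in that setting. It includes members with too few reads for the main test, which kept 17. The interaction gave 13 to 15 calls across DESeq2, its size factors and no filter. Over all genes these called 4449 of 13026, 4306 of 13026 and 4113 of 19519. With the share of reads outside genes as a covariate it gave 10 member calls, where 2352 of 13026 genes were called. Without adult female 14 it gave 10, where 4193 of 13119 genes were called, and without male 7 it gave 18, where 4177 of 13118 were.

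Replicate numbers did not pair the samples, since they belong to different animals and no same-numbered pair of the 24 between adult and fetal liver had a correlation of deviations over 0.1 (-0.14 to 0.07). With the number as a replicate block the calls were 44 for adult against fetal liver, 13 for fetal liver against ES cells and 24 for ES cells against embryos. Among ES lines 1 of 4 correlated best with its own number in fetal liver and 2 of 4 in embryos.

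The spread among samples as SD of log2 CPM was 0.398 in embryos, 0.0763 in ES lines, 0.169 in fetal livers and 0.622 in adult livers, and adult members of at least 10 CPM had a CV of 17.2%. In the 150 bases before the start CHR was found in 8 members and E2F in 4. Depth limits the adult most, where 29 members had a median under 10 reads.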
